A study of Mus musculus with 9 samples.

Results

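The genes described here are 42 genes of protein folding, quality control and early secretion in the endoplasmic reticulum (ER), read in mouse liver fibroblasts. They were chosen by gene symbol, and each of the 42 symbols matched 1 entry among the 24453 genes of the table. The list holds 5 luminal chaperones and lectins, 6 co-chaperones and small luminal factors, 5 protein disulfide isomerases, 6 prolyl isomerases and collagen folding factors, 4 genes of ER-associated degradation, 7 stress sensors and transcription factors of the unfolded protein response, 2 Creb3-like transcription factors and 7 genes of translocation, COPII export and retrieval. RNA sequencing covered 3 groups of 3 libraries, each library made from cells pooled from 3 to 5 mice on the C57BL/6J background. HSCs, the vitamin A-storing pericytes of the liver, were isolated by density gradient from healthy livers of wild-type mice; their age is not given in the sources used here. CCl4-fib were CD45- GFP+ cells sorted from Col1a2-GFP Tg mice, whose GFP is driven by a collagen promoter, after carbon tetrachloride (CCl4) had been given 2 times per week for 8 weeks. The study's text gives no age or sex for these mice, and no sex for the wild-type mice. NASH-fib were sorted by the same gate from male MC4R-KO mice carrying the same transgene, which had been kept on Western diet from 8 weeks of age for 20 weeks. The groups therefore differed in genotype, diet, toxin and isolation method at once, and these cannot be told apart.

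Secreted and membrane proteins enter the ER through the Sec61 channel. There they are folded by chaperones such as BiP and by lectins that read their sugars, receive disulfide bonds from the protein disulfide isomerases, and leave in COPII-coated vesicles. KDEL receptors bring escaped ER residents back from the Golgi. Collagen makes special demands, because its proline-rich chains need prolyl isomerases and hydroxylases and its rigid triple helix needs help to leave the ER. When unfolded protein builds up, the sensors IRE1 (gene Ern1), PERK (Eif2ak3) and ATF6 start the unfolded protein response, which raises chaperones through XBP1 and ATF6 and can raise the transcription factor CHOP (Ddit3) through ATF4. Activated fibroblasts of scarred liver are known as a major source of collagen I and III.

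The promoters of several members hold short elements known from this response, and the matches of 2 of these elements are shown here because the members that hold them are compared further on. RefSeq promoter windows of GRCm38.p6, from 250 bases before to 50 bases after the start of transcription, were given for 35 of the 42 members. The ER stress element (ERSE, CCAAT, 9 bases, CCACG, on either strand) was present in 8 of these 35 genes (22.9%) and in 0.137% of all 27025 genes with a window. Capitals mark the fixed letters of the element, and the first and last base of each printed stretch is given with the strand of the gene.
Hspa5, chr2 34772010 to 34772058, + strand: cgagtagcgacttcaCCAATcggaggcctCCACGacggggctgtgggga
Hsp90b1, first match, chr10 86705623 to 86705671, - strand: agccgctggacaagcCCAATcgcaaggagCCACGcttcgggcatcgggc
Hsp90b1, second match, chr10 86705518 to 86705566, - strand: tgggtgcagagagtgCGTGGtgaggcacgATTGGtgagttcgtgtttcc
Calr, chr8 84847060 to 84847108, - strand: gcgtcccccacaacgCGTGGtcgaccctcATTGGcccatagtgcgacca
Canx, chr11 50325785 to 50325833, - strand: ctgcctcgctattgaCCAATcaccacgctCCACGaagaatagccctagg
Pdia6, chr12 17266476 to 17266524, + strand: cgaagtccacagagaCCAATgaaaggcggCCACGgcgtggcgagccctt
Dnajc3, chr14 118937812 to 118937860, + strand: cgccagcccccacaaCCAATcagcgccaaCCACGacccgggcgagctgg
Creld2, chr15 88819505 to 88819553, + strand: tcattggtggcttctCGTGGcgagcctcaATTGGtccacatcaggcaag
Syvn1, chr19 6046517 to 6046565, + strand: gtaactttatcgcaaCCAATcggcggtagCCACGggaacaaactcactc
The unfolded protein response element (UPRE, TGACGTGG on either strand) was present in 3 members, Kdelr3, Sec24d and Sec23a, and in 0.714% of all genes. The first 2 of these are shown with the element in capitals.
Kdelr3, chr15 79516363 to 79516400, + strand: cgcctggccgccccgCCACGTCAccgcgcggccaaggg
Sec24d, chr3 123267455 to 123267492, + strand: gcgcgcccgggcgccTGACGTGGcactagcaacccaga
The shorter ER stress element II (ATTGG, 1 base, CCACG) was found in Dnajb11 and Herpud1 and in 0.0444% of all genes, and the C/EBP-ATF element (TGATG, 1 base, AA) in Herpud1 and Trib3 and in 4.51% of all genes. In the windows of all genes, matches of different elements overlapped 3 times. A match is a description of letters, and the 7 members without a window, among them Fkbp10, Creb3l1 and Sec61a1, were not searched.

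Each library held between 3071070 and 5634273 reads on genes. The deposited values are reads per gene multiplied by 1 factor per library, so a value compares libraries within a gene, and levels of different genes are compared here only as value per kb of exon. A value of 3 reads, taken as the floor, was 2.38 to 4.37 depending on the library. The floor covers counting error only: the reads were amplified and carry no molecular identifiers, so they do not count molecules. Trib3, a kinase-like target of CHOP, did not pass the filter on low counts, with values from 0.79 to 8.74, so 41 of the 42 members were tested. Of the members, 12 share exon bases with another gene, and since reads of both strands were counted these reads cannot be assigned to either gene with certainty. The overlap was 825 bases for Ppib with the opposite-strand gene Snx22, 415 for Hsp90b1 with a pseudogene, 208 for Fkbp14 with Plekha8, 193 for Fkbp10 with Nt5c3b, and under 100 for the other 8. At most 3 reads per position were counted, and Ppib and Hspa5 reached at least 3 reads per base in some library, where this limit can flatten a value.

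Within their groups, HSCs replicate 2 and NASH-fib replicate 1 stood apart, and they did so in the same members. These were the 2 libraries with the fewest reads. Pdia6 had a value of 359.7 in HSCs replicate 2 against 1126 and 2631 in the other HSC libraries, and of 371 in NASH-fib replicate 1 against 3781 and 3845. Creb3l1 and Ddit3 were low in both libraries as well, while Dnajb9, Manf and Sdf2l1 were high in both. Of the 41 members tested, 9 were lower by at least 1 on the log2 scale in both libraries than the mean of their group mates, compared with 18.8% of all genes tested (22.0% of the members). Another 12 members (29.3%, against 20.3% of all genes) were higher by at least 0.5 in both. Across the 41 members the differences of the 2 libraries had a Pearson correlation of 0.88, and of 0.65 across all 13651 genes tested; these are descriptions across genes, whose points share the libraries. The labels of both libraries, and of CCl4-fib replicate 1, begin with the same day, whose meaning is not given. CCl4-fib replicate 1 did not share the pattern, with correlations over the members of -0.30 with HSCs replicate 2 and -0.20 with NASH-fib replicate 1. The counts of called members in each comparison are therefore also given without both libraries, as are those of the roles, promoter elements and other gene lists where they change.

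**Figure D1:**
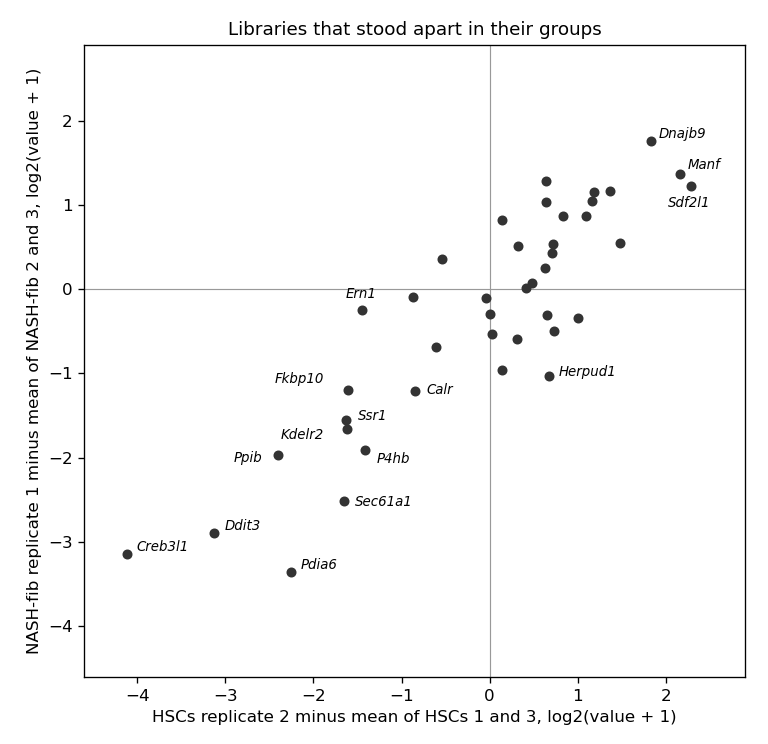
For each of the 41 members tested (points), the log2(value + 1) of HSCs replicate 2 minus the mean of the other HSC libraries (x axis) is plotted against that of NASH-fib replicate 1 minus the mean of the other NASH-fib libraries (y axis). Creb3l1, Ddit3 and Pdia6 lie far below 0 in both and Dnajb9, Manf and Sdf2l1 above 0 in both; the correlation was 0.88.

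The members took up 0.72% to 0.95% of the summed value of an HSC library, 1.03% to 1.28% of a CCl4-fib library and 0.82% to 0.89% of a NASH-fib library, so the CCl4-fib libraries lay above those of both other groups. In HSCs the mean value per kb ran from 1.81 for Trib3 to 1955 for Hsp90b1, with a median over the members of 157. Hsp90b1, Fkbp7, Canx, Kdelr2 and Hspa5 had the highest level per kb in HSCs. In CCl4-fib the order began with Ppib, at 3408 per kb, followed by Hspa5, Fkbp7, Pdia6 and Hsp90b1. In NASH-fib it began, as in HSCs, with Hsp90b1 (1916 per kb), Fkbp7 and Canx. The libraries of a group spread widely around these means: the SD over 3 libraries in HSCs was 1664 around a value of 5356 for Hsp90b1, 896 around 1724 for Fkbp7 and 2668 around 7087 for Canx, so the order of these neighbours is not resolved.

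**Figure D2:**
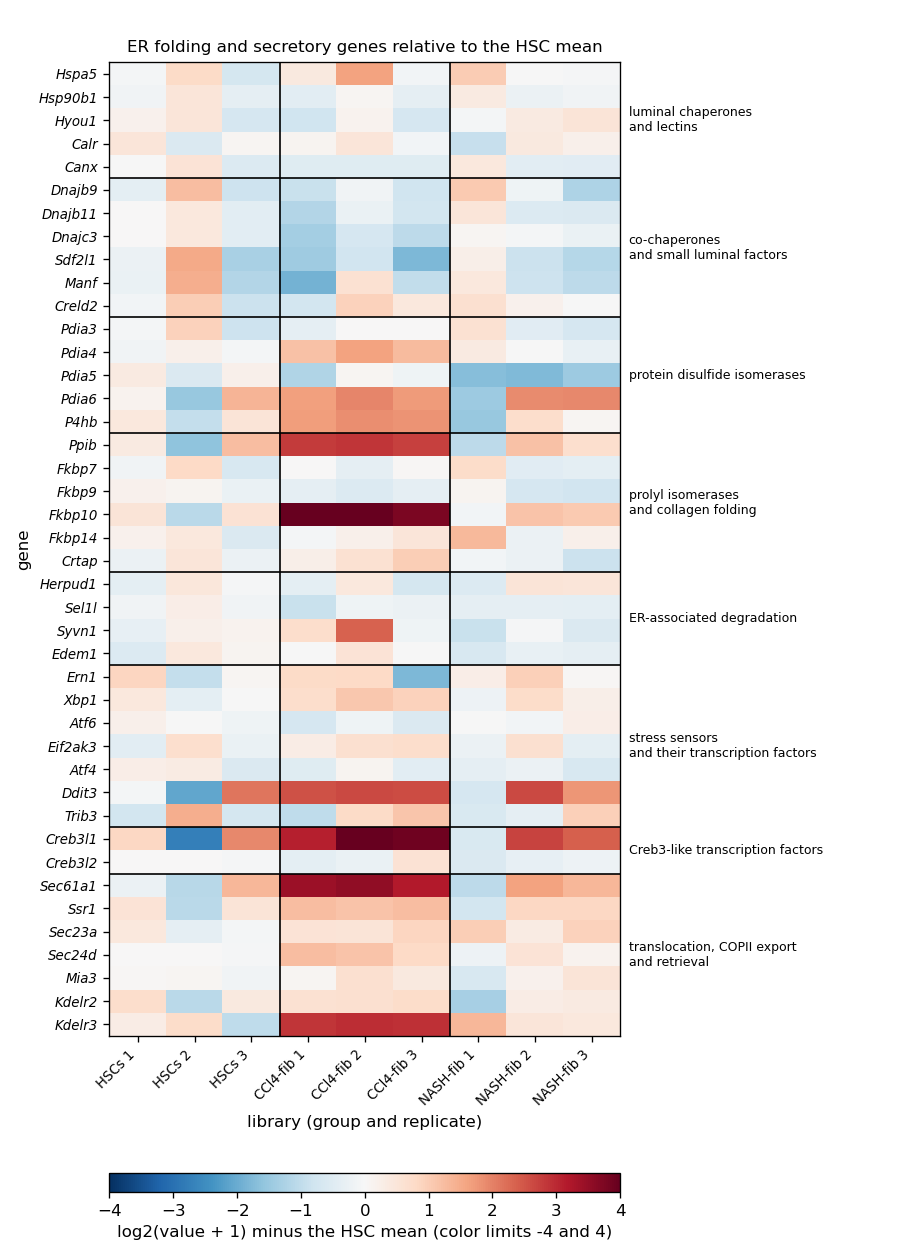
Each row is a member, grouped by role, and each column a library; the color gives log2(value + 1) minus the mean of the 3 HSC libraries, with limits of -4 and 4. Fkbp10, Creb3l1, Sec61a1, Kdelr3 and Ppib are red in all 3 CCl4-fib libraries, and HSCs replicate 2 and NASH-fib replicate 1 share blue cells at Pdia6, P4hb, Ppib, Creb3l1, Sec61a1 and Kdelr2.

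The first comparison, CCl4-fib against HSCs, asks which members differ between fibroblasts of toxic fibrosis and the resting cells of normal liver. In CCl4-fib, 8 of the 41 members tested were called higher: Fkbp10, Creb3l1, Sec61a1, Kdelr3, Ppib, P4hb, Pdia4 and Sec24d. Dnajc3 was the 1 member called lower. A call needs a log2 fold change of 1 or more in either direction together with a Benjamini-Hochberg adjusted p under 0.05, both from limma fitted on log2(value + 1) over all 13651 genes. The 8 members are 19.5% of those tested, close to the 16.2% of all genes called higher; the 1 called lower is 2.44%, below the 11.7% of all genes. The median log2 fold change was 0.20 over the members and 0.18 over all genes. Libraries of the groups did not overlap, CCl4-fib above, for 13 members (27.8% of all genes) and, CCl4-fib below, for 3, namely Dnajc3, Fkbp9 and Sel1l (20.9% of all genes). Without HSCs replicate 2 and NASH-fib replicate 1, 9 members were called higher, with Pdia6 added, and 0 lower (backgrounds of 19.4% and 12.4%). On the 2 days of the labels that hold a library of each group, the 8 differences ran from 0.96 for Pdia4 to 5.86 for Creb3l1 (log2 scale). The latter was taken against HSCs replicate 2. These differences could only lie above 0, because the libraries of the groups did not overlap for the 8 members. The count of 8 rested on single libraries: it was 3 without CCl4-fib replicate 2, and 5 without CCl4-fib replicate 1, HSCs replicate 1 or HSCs replicate 2.

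The second comparison, NASH-fib against HSCs, asks the same of fibroblasts from the obesity model. Here 0 of the 41 members were called higher and 1, Pdia5, lower. The background was 8.23% of all genes called higher and 4.30% called lower. By limma 0 members were higher even at an unadjusted p under 0.05, and edgeR and DESeq2 also called 0 higher. The median log2 fold change was -0.0023 over the members and -0.02 over all genes. Libraries of the groups overlapped for all members but Pdia5, Sel1l and Creb3l2, which were lower in every NASH-fib library (11.6% of all genes; 12.7% of all genes were higher in every NASH-fib library). Leaving out the libraries that stood apart gave 0 higher and 1 lower, on backgrounds of 9.61% and 5.03%. The standard errors of these log2 fold changes ran from 0.31 to 1.15, with a median of 0.45, so a member can have differed by a log2 of 1 without being called.

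The third comparison sets the fibroblasts of both models against each other and shares its CCl4-fib libraries with the first. In NASH-fib, 6 members were called lower than in CCl4-fib (14.6%): Fkbp10, Sec61a1, Ppib, Kdelr3, P4hb and Pdia4. The background was 5.66% of all genes called lower and 4.97% called higher. No member was called higher by limma, with 1 at an unadjusted p under 0.05 (Dnajc3), 0 by edgeR and 1 by DESeq2. The median log2 fold change was -0.32 over the members and -0.11 over all genes. Libraries did not overlap for 13 members with NASH-fib below (22.0% of all genes) and for 3, Canx, Dnajc3 and Atf6, with NASH-fib above (17.1% of all genes). Without both libraries that stood apart, 7 members were called lower, with Crtap added, and 0 higher (backgrounds of 7.11% and 5.47%). On the 2 days that hold both groups the 6 differences ran from -4.44 for Sec61a1 to -0.83 for Pdia4. They could only lie below 0, because the libraries of the groups did not overlap for the 6 members. The count of 6 fell to 1 when any CCl4-fib library or NASH-fib replicate 3 was left out, to 3 without HSCs replicate 1 or NASH-fib replicate 1, and to 1, Fkbp10, with the day of the label as a term.

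**Figure D3:**
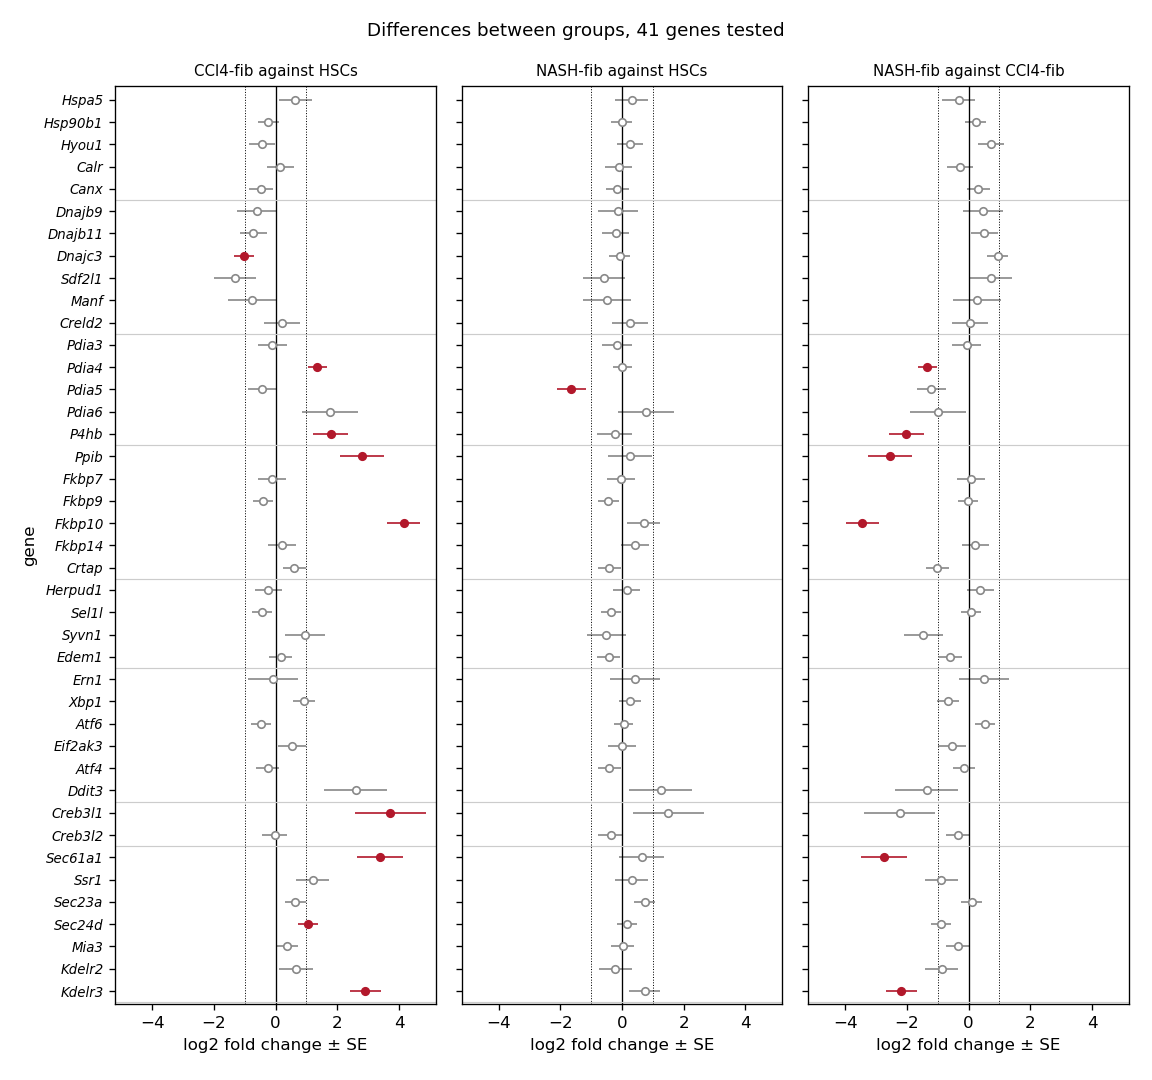
Log2 fold change (point) with its standard error (bar) for the 41 members tested, in the 3 comparisons; filled red points were called and dotted lines mark -1 and 1. Red points to the right are the 8 members called higher in CCl4-fib than in HSCs, those to the left in the third panel the 6 called lower in NASH-fib than in CCl4-fib, and Pdia5 is the 1 red point of the second panel.

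Among prolyl isomerases and collagen folding factors, 2 of 6 members (33.3%) passed as higher in CCl4-fib than in HSCs, beside 16.2% of all genes. Both were called lower in NASH-fib than in CCl4-fib (33.3%, beside 5.66% of all genes). Fkbp10 (NM_010221, mm10 chr11 100415694 to 100424840) encodes an isomerase that acts on collagen chains. Its value was 58.5, 18.9 and 61.0 in HSCs, against 794.5, 899.8 and 570.5 in CCl4-fib, with 38.1, 91.7 and 85.5 in NASH-fib. Every CCl4-fib library lay far above every other library, and HSCs and NASH-fib overlapped. The mean was 16.4-fold higher in CCl4-fib than in HSCs, with a log2 fold change of 4.15 (SE 0.53, adjusted p = 0.000333). NASH-fib was lower than CCl4-fib by a log2 fold change of -3.45 (SE 0.53, adjusted p = 0.00863), and differed from HSCs by 0.70 (adjusted p = 0.538). Nt5c3b, the gene that shares 193 bases with Fkbp10, had values of 20.4 to 84.9 in HSCs, 289 to 352 in CCl4-fib and 10.9 to 55.2 in NASH-fib, so its pattern moved with that of Fkbp10; its part in the value was not tested. Ppib (NM_011149, chr9 66060169 to 66066629), encoding cyclophilin B, a prolyl isomerase that works on collagen together with Crtap and P3h1, had values of 595, 153 and 1107 in HSCs. They were 3219, 3389 and 3134 in CCl4-fib, whereas NASH-fib had 224, 1043 and 744. CCl4-fib again lay above all other libraries, and the low values of 153 and 224 came from the libraries that stood apart. Against HSCs the log2 fold change was 2.80 (SE 0.71, adjusted p = 0.015), and 1.998 (adjusted p = 0.000733) without those libraries. NASH-fib was lower than CCl4-fib by -2.54 (SE 0.71, adjusted p = 0.0475). Snx22, which overlaps most of Ppib, followed it from 149.99 to 795 in HSCs, 2044 to 2134 in CCl4-fib and 215 to 757 in NASH-fib, so the reads of this pair cannot be told apart. The other 4 factors were not called in the 3 comparisons, although Crtap was called lower in NASH-fib than in CCl4-fib without the libraries that stood apart (-1.16, adjusted p = 0.045): Crtap had a log2 fold change of 0.61 in CCl4-fib against HSCs, Fkbp14 of 0.20, Fkbp7 of -0.11 and Fkbp9 of -0.42.

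Of the 7 genes of translocation, COPII export and retrieval, 3 were called higher in CCl4-fib, and the log2 fold change against HSCs was above 0 for all 7 of them. Sec61a1 (NM_016906, chr6 88503607 to 88518800), the pore subunit of the translocation channel, had values of 171, 93.2 and 513 in HSCs, compared with 2149, 2372 and 1840.4 in CCl4-fib, while NASH-fib had 97.9, 622 and 506. The CCl4-fib libraries lay above all others, while the other 2 groups overlapped widely. It was 8.19-fold higher in CCl4-fib than in HSCs (log2 fold change 3.38, SE 0.74, adjusted p = 0.00664) and lower in NASH-fib than in CCl4-fib by -2.74 (SE 0.74, adjusted p = 0.0406). Kdelr3 (NM_134090, chr15 79516408 to 79527739), a receptor that retrieves ER residents, had values of 52.6, 71.35 and 20.3 in HSCs, then 316, 337 and 329 in CCl4-fib, next to 107, 59.7 and 57.0 in NASH-fib. Its CCl4-fib libraries were nearly equal and lay above the rest. Against HSCs it had a log2 fold change of 2.91 (SE 0.50, adjusted p = 0.00181), and NASH-fib was lower than CCl4-fib by -2.18 (SE 0.50, adjusted p = 0.0248). Kdelr3 was not low in the libraries that stood apart, being higher there by 1.10 and 0.87 on the log2 scale than in their group mates. Sec24d (NM_027135, chr3 123267496 to 123365636), a cargo-binding subunit of the COPII coat, had values of 386, 386 and 371 in HSCs, against 891, 844 and 656 in CCl4-fib, with 333, 562 and 416 in NASH-fib. It was higher in every CCl4-fib library than in any other, with a log2 fold change of 1.05 against HSCs (SE 0.32, adjusted p = 0.0316), while NASH-fib against CCl4-fib, at -0.89, was not called (adjusted p = 0.099). The second retrieval receptor, Kdelr2, had 1557 per kb in CCl4-fib against 233 for Kdelr3, and a log2 fold change of 0.66 that was not called (adjusted p = 0.391). Ssr1, of the complex beside the translocation channel, and the COPII subunit Sec23a had CCl4-fib libraries above every HSC library but were not called, with log2 fold changes of 1.20 (adjusted p = 0.119) and 0.64 (adjusted p = 0.181). Mia3, a receptor that loads collagen into COPII carriers, had a log2 fold change of 0.37 (adjusted p = 0.475).

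The 5 protein disulfide isomerases were divided. Pdia4 and P4hb were called higher in CCl4-fib, Pdia5 was called lower in NASH-fib, and Pdia3 and Pdia6 were not called. P4hb (NM_011032, chr11 120560304 to 120572936), which is both a disulfide isomerase and a subunit of collagen prolyl 4-hydroxylase, had values of 938, 364 and 1001 in HSCs, compared with 2237, 2536 and 2458 in CCl4-fib, while NASH-fib had 245, 1137 and 742. The CCl4-fib libraries lay above the rest, and the lowest value of each other group came from the library that stood apart. CCl4-fib differed from HSCs by a log2 fold change of 1.78 (SE 0.57, adjusted p = 0.0388), and -2.02 in NASH-fib against CCl4-fib (SE 0.57, adjusted p = 0.0464). Pdia4 (NM_009787, chr6 47796141 to 47813512), a disulfide isomerase of the BiP complex, had values of 874, 1111 and 895.5 in HSCs, then 2159.7, 2899 and 2286 in CCl4-fib, next to 1214, 937 and 772.5 in NASH-fib. HSCs and NASH-fib had nearly the same mean, 960.3 ± 131 and 974 ± 223 (SD, n = 3), below every CCl4-fib library. Its log2 fold change was 1.35 in CCl4-fib against HSCs (SE 0.31, adjusted p = 0.00876) and -1.34 in NASH-fib against CCl4-fib (SE 0.31, adjusted p = 0.0251). Pdia5 (NM_028295, chr16 35397312 to 35490873), an isomerase of low level, had values of 152, 78.6 and 136 in HSCs, against 50.8, 123 and 104 in CCl4-fib, with 35.3, 33.8 and 42.3 in NASH-fib. All NASH-fib libraries lay below all others, while HSCs and CCl4-fib overlapped. In NASH-fib the log2 fold change was -1.64 against HSCs (SE 0.46, adjusted p = 0.0423), and -1.21 against CCl4-fib (adjusted p = 0.119). On the 1 day that held both groups it was -1.13, and the call was lost with the day or the replicate number as a term. Pdia6 had values of 3185 to 3953 in CCl4-fib, above the HSC range of 359.7 to 2631, with a log2 fold change of 1.76 that was not called (SE 0.90, adjusted p = 0.169). Without the libraries that stood apart it was 1.01 (adjusted p = 0.0367) and called. Pdia3, the partner of the lectins, had a log2 fold change of -0.10.

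**Figure D4:**
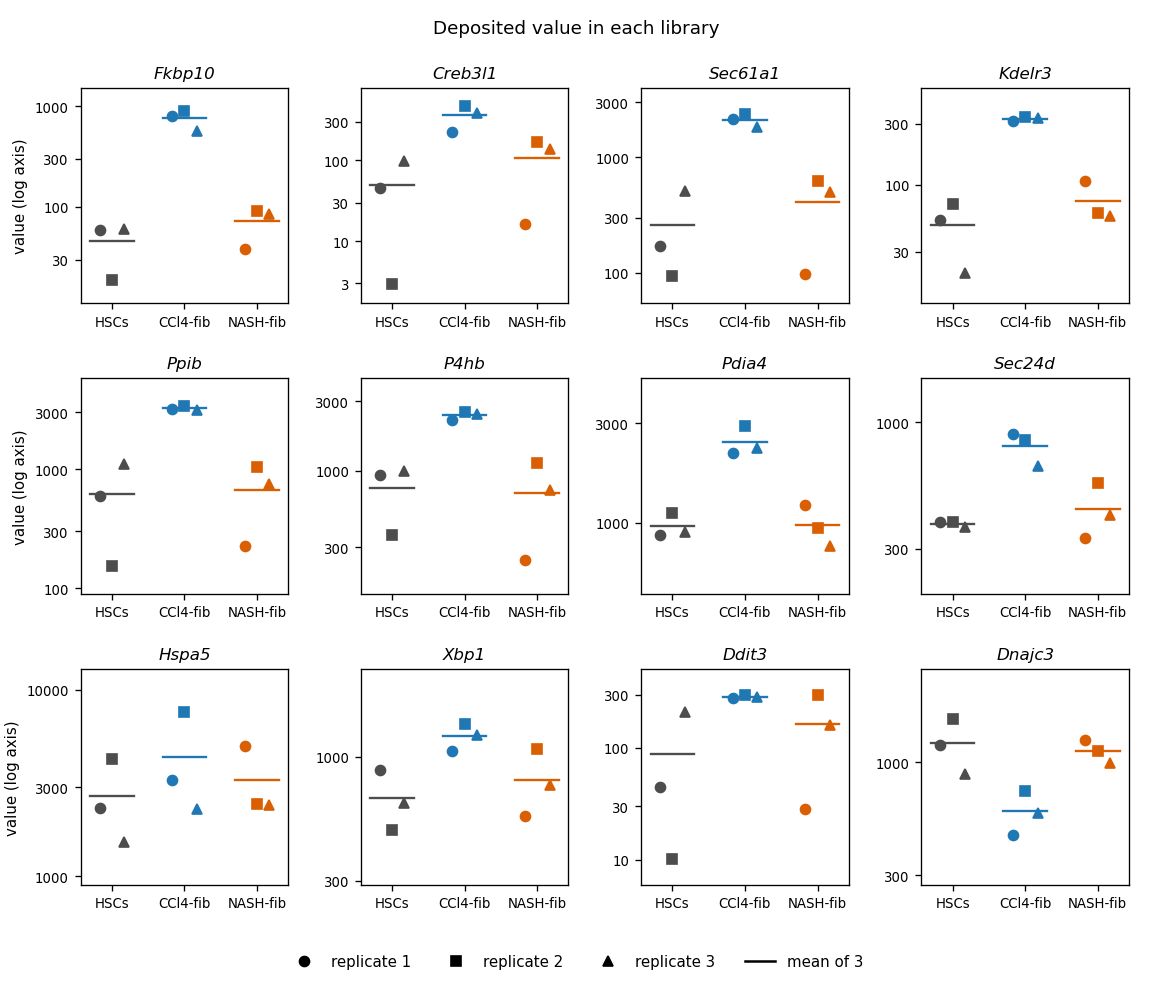
The deposited value in each library (y axis, logarithmic, with its own range in each panel) for 12 members; circles, squares and triangles are replicates 1, 2 and 3, and lines mark group means. In the panels from Fkbp10 to Sec24d every CCl4-fib point lies above every other point, whereas the groups overlap for Hspa5 and the CCl4-fib points lie lowest for Dnajc3.

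The Creb3-like transcription factors are made as ER membrane proteins, are cut free in the Golgi, and are known as activators of collagen and secretory genes. Creb3l1 (NM_011957, chr2 91982328 to 92024170) had values of 45.6, 2.91 and 98.03 in HSCs, compared with 225, 469.5 and 389 in CCl4-fib, while NASH-fib had 16.3, 169 and 137. CCl4-fib lay above all other libraries, and the value of 2.91 in HSCs replicate 2 was that of 2 reads. The log2 fold change against HSCs was 3.72 (SE 1.15, adjusted p = 0.0347), the least precise of those called, and 2.35 (adjusted p = 0.00239) without the libraries that stood apart. NASH-fib differed from CCl4-fib by -2.23 and from HSCs by 1.497, neither of them called (adjusted p = 0.228 and 0.54). Creb3l2 had values of 84.9 to 88.8 in HSCs and of 65.9 to 129.8 in CCl4-fib, with a log2 fold change of -0.03 (SE 0.40).

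Of the 5 luminal chaperones and lectins, 0 were called in any comparison by limma, and 0 by edgeR or DESeq2 or at an unadjusted p under 0.05. Hspa5, encoding BiP, the chaperone whose level is the usual gauge of the unfolded protein response, had values of 2334, 4232 and 1536 in HSCs, then 3276, 7566 and 2281 in CCl4-fib, next to 4989, 2436 and 2409 in NASH-fib. The groups overlapped, and each held 1 library well above the other 2. The log2 fold change was 0.63 in CCl4-fib (SE 0.53, adjusted p = 0.398) and 0.32 in NASH-fib against HSCs (adjusted p = 0.838). Without the libraries that stood apart it was 1.02 in CCl4-fib (SE 0.43, adjusted p = 0.0951) and 0.35 in NASH-fib (adjusted p = 0.704), neither of them called. Hsp90b1, the ER form of HSP90, had values of 4738, 7240.1 and 4090.0 in HSCs, against 3869, 5511 and 4026 in CCl4-fib, with 6612, 4432 and 4702 in NASH-fib. It overlapped in all groups, with log2 fold changes of -0.24 in CCl4-fib (SE 0.34, adjusted p = 0.633) and -0.01 in NASH-fib (adjusted p = 0.996). Against HSCs, the lectin Calr had log2 fold changes of 0.16 in CCl4-fib and -0.12 in NASH-fib, the lectin Canx of -0.47 and -0.15, and Hyou1, a large partner of BiP, of -0.45 and 0.27.

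Of the 6 co-chaperones and small luminal factors, limma and edgeR called 1, Dnajc3, lower in CCl4-fib than in HSCs. That is 16.7%, beside 11.7% of all genes by limma. DESeq2 called 2, Dnajc3 and Sdf2l1. Dnajc3 (NM_008929, chr14 118937932 to 118981702), a co-chaperone of BiP, had values of 1197, 1587 and 884 in HSCs, compared with 461, 739.9 and 580.1 in CCl4-fib, while NASH-fib had 1263, 1128 and 992. Every CCl4-fib library lay below every library of the other groups. The log2 fold change was -1.03 against HSCs (SE 0.34, adjusted p = 0.043), and -0.82 (adjusted p = 0.0446) and no longer called without the libraries that stood apart. Within days it was -1.78 and -0.26. NASH-fib against CCl4-fib was 0.94 (SE 0.34, adjusted p = 0.0975), not called by limma, and 1.11 (adjusted p = 0.0294) and called higher by DESeq2. The remaining co-chaperones and factors had log2 fold changes in CCl4-fib against HSCs of -0.60 (Dnajb9), -0.72 (Dnajb11), -1.32 (Sdf2l1), -0.77 (Manf) and 0.21 (Creld2). Without the libraries that stood apart these were 0.008 (Dnajb9), -0.51 (Dnajb11), -0.56 (Sdf2l1), -0.05 (Manf) and 0.70 (Creld2). By limma and edgeR 0 of these 5 were called, with 0 at an unadjusted p under 0.05, while DESeq2 called Sdf2l1 lower (-1.88, adjusted p = 0.0352). The HSC and CCl4-fib libraries of all 5 overlapped.

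The 4 genes of ER-associated degradation, which send misfolded protein back to the cytosol, were not called in any comparison by limma, edgeR or DESeq2. By limma 1, Syvn1, was lower in NASH-fib than in CCl4-fib at an unadjusted p under 0.05. Herpud1, a membrane component of the degradation complex and the one with the highest level per kb, had values of 320.3, 575 and 405 in HSCs, then 321, 559 and 258 in CCl4-fib, next to 289.6, 602 and 584 in NASH-fib. The ranges nearly coincide, and the log2 fold changes were -0.23 (adjusted p = 0.714) and 0.15 (adjusted p = 0.92) against HSCs. Syvn1, the ubiquitin ligase of the complex, was at a low level, 16.3 to 36.4 in HSCs and NASH-fib, with a single value of 164 in CCl4-fib replicate 2 beside 51.6 and 27.7. Its log2 fold change was 0.96 in CCl4-fib against HSCs (SE 0.64, adjusted p = 0.285) and -1.47 in NASH-fib against CCl4-fib (SE 0.64, adjusted p = 0.159). Its partner Sel1l and the lectin-like Edem1 had log2 fold changes in CCl4-fib against HSCs of -0.44 and 0.17.

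Among the stress sensors and their transcription factors, 6 of 7 were tested and 0 called by limma, edgeR or DESeq2, with 2, Xbp1 and Ddit3, higher in CCl4-fib than in HSCs at an unadjusted p under 0.05. Ern1 had 5.82 to 23.4 in HSCs, 2.86 to 22.1 in CCl4-fib and 12.8 to 24.9 in NASH-fib, close to the floor, and the groups overlapped (log2 fold change in CCl4-fib -0.08, SE 0.81). Eif2ak3 had values of 53.8, 115 and 59.8 in HSCs, against 88.9, 112 and 116 in CCl4-fib, with 61.2, 111 and 54.0 in NASH-fib, and Atf6 of 367, 313 and 285 in HSCs, compared with 198, 286 and 213 in CCl4-fib, while NASH-fib had 314, 299 and 383. The log2 fold changes in CCl4-fib against HSCs were 0.54 for Eif2ak3 (SE 0.45, adjusted p = 0.393) and -0.48 for Atf6 (SE 0.32, adjusted p = 0.283). Xbp1, the factor whose transcript IRE1 splices, had values of 878, 491 and 637 in HSCs, then 1062, 1381 and 1238 in CCl4-fib, next to 564, 1080.3 and 763 in NASH-fib. CCl4-fib lay above all HSC libraries and overlapped NASH-fib, with a log2 fold change of 0.91 against HSCs (SE 0.36, adjusted p = 0.0816). The values count reads on the whole gene and so do not separate spliced from unspliced transcript. Atf4 had values of 361, 377 and 202 in HSCs, against 217, 324 and 226 in CCl4-fib, with 234, 259 and 192 in NASH-fib, and overlapped in all groups (log2 fold change in CCl4-fib -0.26, SE 0.37). Ddit3, encoding CHOP, had values of 44.4, 10.2 and 209 in HSCs, compared with 278, 295 and 287 in CCl4-fib, while NASH-fib had 28.6, 297 and 161. The CCl4-fib libraries were nearly equal and above all HSC libraries, whereas HSCs and NASH-fib each spread over a wide range, lowest in the libraries that stood apart. Its log2 fold change of 2.60 against HSCs was not called (SE 1.02, adjusted p = 0.0831), nor was the 1.56 (adjusted p = 0.0549) left without those libraries.

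How firmly each member was called varied over 19 alternatives of the fit, which include leaving out each of the 9 libraries. Fkbp10 kept both of its calls under all 19, with adjusted p of at most 0.00297 in CCl4-fib against HSCs and 0.0443 in NASH-fib against CCl4-fib. Kdelr3 and Sec61a1 kept their call against HSCs under all 19, and Pdia4 and Ppib missed it only without CCl4-fib replicate 2, with an adjusted p of 0.0515 for each. Creb3l1 lost its call in 6 alternatives (adjusted p up to 0.108): without any CCl4-fib library, without HSCs replicate 1 or 2, and with edgeR. P4hb lost it in 8 (up to 0.127), among them without any CCl4-fib library, HSCs replicate 1 or 2, or NASH-fib replicate 3. Sec24d, whose log2 fold change stayed between 0.93 and 1.18, lost it in 10, among them edgeR, DESeq2, TMM scaling, and without any HSC library or CCl4-fib replicate 1 or 2. With DESeq2 only the fold limit of 1 ended the call, at a log2 fold change of 0.97 (adjusted p = 0.00726). Dnajc3 lost it in 12, with log2 fold changes of -1.24 to -0.82, and Pdia5 in NASH-fib against HSCs in 11, with -1.93 to -1.32. For these last members all but 2 of the single libraries ended the call: Dnajc3 kept it without HSCs replicate 3 or NASH-fib replicate 1, and Pdia5 without CCl4-fib replicate 1 or HSCs replicate 2. In NASH-fib against CCl4-fib, leaving out any CCl4-fib library or NASH-fib replicate 3 ended the calls of Kdelr3, Sec61a1, Ppib, P4hb and Pdia4, with adjusted p up to 0.1003 for Kdelr3 and 0.150 for P4hb. Leaving out HSCs replicate 1 or NASH-fib replicate 1 also ended those of Sec61a1, Ppib and P4hb. No value changed its direction. Leaving out libraries could not change it, because those of the groups compared did not overlap in any of these calls.

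Set beside the promoters, the members with an ERSE held 0 genes called higher in CCl4-fib than in HSCs and 1, Dnajc3, called lower, of 8 tested, beside 16.2% and 11.7% of all genes. Without the libraries that stood apart this turned to 1 higher, Pdia6, and 0 lower, beside 19.4% and 12.4% of all genes. With all libraries, the log2 fold changes of the members with an ERSE ran from -1.03 to 1.76, with a median of 0.18. Of the 3 members with a UPRE, Kdelr3 and Sec24d were called higher and Sec23a was not, with and without the libraries that stood apart, on the same backgrounds. Sec24d lost its call in 10 of the 19 alternatives of the fit. In NASH-fib against HSCs the medians were -0.05 for the ERSE members and 0.74 for the UPRE members, and none was called. Since Fkbp10, Creb3l1 and Sec61a1 have no window, these counts cover only a part of the members.

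The other genes of these pathways were read from lists that matched 119 entries of the table, of which 117 were tested; Mia2 has 2 of these entries, under its own symbol and as Ctage5. Of them, 23 (19.7%) were called higher and 1 (0.855%) lower in CCl4-fib than in HSCs, with a median log2 fold change of 0.63; of all genes 16.2% were higher, a share near that of the lists, and 11.7% lower. In NASH-fib, 4 (3.42%) were called higher and 0 lower than in HSCs, beside 8.23% and 4.30% of all genes. Against CCl4-fib 2 (1.71%) were higher and 13 (11.1%) lower in NASH-fib, beside 4.97% and 5.66%. The 0 lower by limma were 1 at an unadjusted p under 0.05, 0 by edgeR and 0 by DESeq2. Without both libraries that stood apart, 32 (27.4%) were higher and 1 lower in CCl4-fib than in HSCs (19.4% and 12.4% of all genes), 7 higher and 1 lower in NASH-fib than in HSCs, and 2 higher and 16 lower in NASH-fib than in CCl4-fib. Collagen folding and modification had 5 of 13 called higher in CCl4-fib (38.5%), and 8 (61.5%) without those libraries: P3h1, the 3-hydroxylase that joins Ppib and Crtap, rose by a log2 fold change of 3.14 (adjusted p = 0.00255), and P3h4, of a related complex, by 2.93 (adjusted p = 0.00395). P4ha3, a subunit of the 4-hydroxylase, had 0 reads in every HSC library and values of 12.7, 3.4 and 19.1 in CCl4-fib, at least 3.07-fold higher against the floor of 3 reads per library. Other ER folding enzymes had 7 of 20 called higher, 8 without those libraries, led by the isomerase Fkbp11 (5.32, adjusted p = 0.00318), the BiP exchange factor Sil1 (3.85, adjusted p = 0.00199) and the glucosidase subunit Prkcsh (2.73, adjusted p = 0.00502). Fkbp11 had values of 5.84, 2.91 and 39.5 in HSCs, then 325, 407 and 522 in CCl4-fib, next to 5.44, 70.4 and 60.0 in NASH-fib. In NASH-fib all 3 of these enzymes were called lower than in CCl4-fib, by -3.76, -2.99 and -2.46.

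The translocon, signal peptidase and glycosyl transfer genes had 2 of 22 (9.09%) called higher in CCl4-fib than in HSCs, and 4 (18.2%) without the libraries that stood apart. Of all genes 16.2% were called higher there, and 19.4% without those libraries. The same shares of all genes stand beside the CCl4-fib counts of the lists that follow. The 2 were Sec61b (2.15, adjusted p = 0.029), the small subunit of the channel, and Ssr3 (1.08, adjusted p = 0.0479), which lost its call without those libraries. Magt1, a subunit of the oligosaccharyl transferase, was higher in NASH-fib than in CCl4-fib by 1.35 (adjusted p = 0.0314). Of the other ER-associated degradation genes 3 of 15 tested (20%) were called higher in CCl4-fib, and 4 (26.7%) without those libraries. Among them were Derl2 (2.27, adjusted p = 0.0151), Vimp (1.94, adjusted p = 0.0266) and Edem2 (1.83, adjusted p = 0.0472). Of the other COPII, COPI and cargo receptor genes 3 of 30 (10%) were called higher, 5 (16.7%) without those libraries. Among them were Tmed9 (2.39, adjusted p = 0.000564) and Sec31a (1.18, adjusted p = 0.033), and both were called lower in NASH-fib than in CCl4-fib. The entry under the symbol Mia2, an ER exit site gene, was the 1 entry of the lists called lower in CCl4-fib, with values of 14.03, 4.37 and 47.8 in HSCs and 0 reads in every CCl4-fib library, at least 8.5-fold lower. The other entry of this gene, Ctage5, had 361 to 411 in HSCs and 339.7 to 401 in CCl4-fib, with a log2 fold change of -0.05 (adjusted p = 0.904). The remaining stress response genes had 3 of 17 tested (17.6%) called higher in CCl4-fib and 3 (17.6%) in NASH-fib, both against HSCs. The count in NASH-fib was 4 (23.5%) without those libraries. Of all genes 8.23% were called higher in NASH-fib than in HSCs, and 9.61% without those libraries. Atf3, a stress-induced factor, had values of 54.9, 7.28 and 20.3 in HSCs, against 99.2, 287 and 491 in CCl4-fib, with 203, 348 and 634 in NASH-fib, with log2 fold changes of 3.50 (adjusted p = 0.00727) and 4.05 (adjusted p = 0.00556) against HSCs. Asns, the asparagine synthetase gene that ATF4 is known to activate, had 4.89 (adjusted p = 0.001) and 3.15 (adjusted p = 0.0189). Chac1, another known target of ATF4, was called higher in NASH-fib only against HSCs, by 3.04 (adjusted p = 0.0261), from values of 1.17, 7.28 and 1.2 to 31.3, 29.4 and 21.6.

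Markers of other cells moved with the groups. The summed value of 10 hepatocyte markers was 23933 to 49848 in HSCs, 2304 to 3736 in CCl4-fib and 7523 to 34249 in NASH-fib. That of 7 macrophage markers was 3909.8 to 13408 in HSCs, 379 to 754 in CCl4-fib and 2739 to 5776 in NASH-fib, and that of 6 sinusoidal endothelial markers 5547 to 13323, 218 to 255 and 1030.5 to 3434. Not every marker followed its sum. The hepatocyte gene Apoa1 had a mean of 178 in CCl4-fib and 102 in NASH-fib. Of the macrophage genes, C1qa had means of 20.8 and 19.6 there, and Cd68 overlapped in all groups. The macrophage gene Clec4f was at 0 in CCl4-fib replicate 3. Plasma cells are rich in these ER genes, and 7 B and plasma cell markers summed to 227 to 1392 in HSCs, 33.2 to 58.2 in CCl4-fib and 277 to 396 in NASH-fib. Jchain gave the largest part in HSCs and NASH-fib, with 189 to 1357 and 219.99 to 307, against 14.3 to 36.2 in CCl4-fib. Pou2af1 was at 0 in all CCl4-fib libraries and in HSCs replicates 1 and 2. The sum of 5 cholangiocyte markers was 63.1 to 226 in HSCs, 3475 to 4750.1 in CCl4-fib and 5963 to 11604 in NASH-fib. Spp1 carried most of the NASH-fib sum, with 4847 to 10729.5 against 938 to 2421 in CCl4-fib, while Krt19 had 53.0 to 469 in NASH-fib and 771 to 2699 in CCl4-fib, and Krt7 overlapped between them. Epcam had 20.6 to 66.6 in NASH-fib and 0.85 to 7.94 in CCl4-fib. It was called higher in NASH-fib (log2 fold change 3.40, adjusted p = 0.0352), but not without the libraries that stood apart. Sox9 had 254 to 578 in NASH-fib and 113.5 to 237 in CCl4-fib, and was not called between them. Markers of quiescent stellate cells (6 genes) summed to 19314 to 23661 in HSCs and 693 to 1746 in both fibroblast groups, and those of activated fibroblasts (8 genes) to 7223 to 12407 in HSCs, 47480 to 53767 in CCl4-fib and 24345 to 28804 in NASH-fib. Of the quiescent stellate markers Lrat, Reln, Ngfr and Pth1r were called lower in both fibroblast groups than in HSCs, with Lrat at 7070 to 14894 in HSCs and at most 458 elsewhere. Des was not called and overlapped in all groups, but its means were higher in the fibroblasts: 168 in HSCs, 334 in CCl4-fib and 543 in NASH-fib. Without the libraries that stood apart Des was called higher in NASH-fib than in HSCs (log2 fold change 1.71, adjusted p = 0.0215). Hand2 was called lower only in NASH-fib against HSCs. Of the activated fibroblast markers Col1a1, Col1a2, Acta2, Timp1 and Lox were called higher in both groups and Col3a1 in CCl4-fib, Pdgfrb was not called, and Postn went the other way, with 2971 to 5577 in HSCs, 1435 to 2159 in CCl4-fib and 908 to 2353 in NASH-fib, called lower in NASH-fib (adjusted p = 0.0225). The part of these cells in the differences of the ER genes was not tested. In pooled bulk RNA, fewer cells of a type and less RNA per cell cannot be told apart.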

How the data were processed

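RNA sequencing libraries of 9 pools (3 HSCs, 3 CCl4-fib, 3 NASH-fib) were analysed, grouped by their labels. The authors amplified RNA with a SMARTer kit, sequenced single-end reads, aligned them to mm10 with STAR and counted them with HOMER on RefSeq exons on both strands. No more than 3 reads were kept at a position, and the transcripts of a gene were condensed into 1 entry. The deposited signal per gene is that read count multiplied by 1 factor per library; its scaling covered 10 libraries, of which 9 are analysed here. Whole reads were recovered from the signal for 100% of values (tolerance 0.1 reads) and gave 3071070 to 5634273 reads per library. Nothing says how many separate isolations the pools represent, so p-values measure the spread between pools.

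The deposited values were put on the scale log2(value + 1), which understates changes of low genes. Genes were kept by filterByExpr of edgeR (minimum count 10; 13651 genes). The groups were fitted together in limma 3.58.1 (R 4.3.3) with a mean-dependent prior and Benjamini-Hochberg adjustment over all genes kept. The members and lists were chosen with earlier results of these data known. Values per library are given for the stress sensors, Hspa5 and up to 3 called members of each role with the largest log2 fold change, or, where none was called, the member with the highest value per kb, and up to 3 called genes of each other list are named. The scripts were tested on simulated data. Alternatives were edgeR 4.0.16, DESeq2 1.42.0, TMM scaling, no filter, pseudocounts of 0.5 and 10, no fold limit, 2 groups only, the replicate number or the day of the label as a term, each library left out and, chosen after seeing the data, both libraries that stood apart left out. Exon overlaps came from the GENCODE M21 annotation of mm10, promoter windows from RefSeq. Figures were drawn with matplotlib 3.10.9.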

Additional observations from a re-analysis of the deposited data

How the results depend on the processing

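The number of members called higher in CCl4-fib than in HSCs, 8 as reported, was 6 with edgeR, 7 with DESeq2, 6 with the day of the label as a term and 3 to 10 when single libraries were left out. The member called lower there, Dnajc3, was lost (0 members) with 2 groups only, without both libraries that stood apart, with the day as a term, with no filter on low values and with the replicate block; DESeq2 called 2, and leaving out single libraries gave 0 to 2. In NASH-fib against HSCs the 1 member called lower, Pdia5, was lost (0 members) with 2 groups only, with the day, with no filter and with the replicate block, and leaving out single libraries gave 0 to 1; 0 were called higher under every alternative. In NASH-fib against CCl4-fib the 6 members called lower became 1 with the day as a term, 2 with edgeR, 3 with the replicate block and 1 to 6 with single libraries left out; 1 was called higher with DESeq2. The cause of these changes was not tested.

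The replicate block, that is the replicate number as a term, left 6 members called higher in CCl4-fib than in HSCs. The numbers do not pair the samples: correlations of deviations between libraries of the same number ran from -0.47 to 0.51. Over the 16 called differences of single members and 19 alternatives, 213 of 304 values kept their call, 91 lost it and 0 reversed. A reversal was not possible where libraries were left out, because those of the groups did not overlap. Fkbp10 in both of its comparisons, and Kdelr3 and Sec61a1 in CCl4-fib against HSCs, kept the call under all 19. Pdia4 and Ppib in CCl4-fib against HSCs lost it only without CCl4-fib replicate 2. Scaling by TMM moved the median of all genes from 0.18 to 0.06 in CCl4-fib against HSCs and from -0.11 to 0.07 in NASH-fib against CCl4-fib, and edgeR called 802 genes higher and 563 lower there, against 678 and 773 by limma. With 3 pools a group and standard errors of 0.31 to 1.15, differences near a log2 of 1 could be missed, and in the shallowest library 3 reads stand for a value of 4.37.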
